A study of Rattus with 9 samples.

Results

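Conventional CD4 T cells of the rat bile duct were picked from single-cell RNA-seq of 9 bile duct samples by the RNA found in each cell. A cell counted as a T cell when at least 2 of the CD3 chain genes Cd3d, Cd3e and Cd3g were detected. A T cell was a member when it held at least 1 unique molecular identifier (UMI, the tag of 1 captured RNA molecule) of Cd4 and none of Cd8a, Cd8b, Foxp3, Il17a, Cd79b, Csf1r or Epcam. The rule kept 656 members of 150379 cells (0.436%), or of 17556 T cells (3.74%). These genes were used to choose the cells, so their levels are not results.

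CD4 T cells recognise peptides on MHC class II and act mainly through what they display and secrete, such as CD40 ligand, which activates B cells and antigen-presenting cells, and interleukins that instruct other cells. Resting cells carry the transcription factor Lef1, which declines as cells become effectors. CD8 T cells, in contrast, carry perforin and granzymes for killing. In a liver graft, recipient CD4 T cells are known to take part in rejection. In rats, monocytes and macrophages also express Cd4, which is why the CD3 genes were required.

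All samples were bile duct of rats, Sprague-Dawley in the study. The sham group had 3 samples. The transplant group received a liver graft with warm ischemic injury and was sampled at days 1, 3 and 7, with 1 sample a day. The raised flow group received the same kind of graft, with the splenic and gastroduodenal arteries tied off to raise flow in the hepatic artery, and was sampled on the same 3 days. The tissue was digested with enzymes and dead cells and red cells were removed, so a share of cells is a share of what survived this. Transplant and raised flow samples were made of 2 or 3 libraries each, 20 libraries in all with the sham samples, and the labels do not say whether these were separate rats. Libraries of a sample were therefore summed, and p-values measure the spread between samples, which may be technical. In tests of single genes, part of this spread is shared across genes.

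The matrices held 21270647 to 290590249 UMIs per sample. The members had a median of 4197.5 UMIs and 1365.5 genes, and no member barcode occurred in more than 1 library. All 3 CD3 chain genes were detected in 586 members and 2 in the other 70. Just outside the rule lay 52 cells that met every other condition but held 1 CD3 chain gene, and 131 that held Il17a, Cd79b, Csf1r or Epcam. Exactly 1 Cd4 UMI was found in 564 members, and 5775 further T cells had no UMI of Cd4, Cd8a, Cd8b or the other barred genes, so the members are the part of the CD4 T cells in which sparse Cd4 RNA was caught. Cd4 was found in 10.3% of T cells without Cd8 RNA (median depth 3357 UMIs), against 1.87% of T cells with Cd8 RNA (4283.5 UMIs) and 0.623% of Epcam cells without CD3 RNA (5198 UMIs). Thinned to 1500 UMIs a cell, the first and second of these were 4.10% and 0.501%. Cells with Cd8 that was missed can therefore be among the members, and their number was not tested.

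The label was checked with T cell markers that the rule did not use. Cd2, Cd5, Lck and Lat summed to 468 to 1584 CPM (UMIs of a gene scaled to a common total of UMIs per sample) in the members of the 9 samples, and to 17.4 to 249 CPM in empty barcodes of the same samples. Each sample's members were above its empty barcodes. B cell markers stayed at 0 to 47.1 CPM, with all 4 detected. Of the plasma cell list 2 of 3 genes were detected (Derl3 at 0), with 24.4 and 51.9 CPM at transplant and raised flow day 7 and 0 elsewhere. Of the dendritic list 3 of 4 (Xcr1 at 0) and of the mast cell list 2 of 3 (Tpsb2 at 0) were detected, at no more than 4.48 and 2.56 CPM. Macrophage and monocyte markers, all 7 detected, ranged from 0 to 809 CPM with the highest sum in sham 1, and NK cell markers, all 3 measured ones detected, from 0 to 405 CPM. The part of these RNAs in the results was not tested. The fibroblast markers Col1a1, Col3a1 and Dcn stood apart. They summed to 42.7 CPM in members of transplant day 7, 837 at transplant day 3 and 4342, 1707 and 1042 in raised flow at days 1, 3 and 7. In sham 1, 2 and 3 they summed to 0, 468 and 424 CPM, and at transplant day 1 to 36.8. Neutrophil markers reached 1764.5 CPM at transplant day 7 and stayed at 295 or below elsewhere.

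The number of CD4 T cells differed widely between samples. The sham samples gave 4, 1 and 6 members, which was 0.163%, 0.0100% and 0.0501% of cells. The transplant samples gave 6, 46 and 200 at days 1, 3 and 7, or 0.0435%, 0.565% and 0.585% of cells. The raised flow samples gave 41, 88 and 264, or 0.169%, 0.498% and 0.948%. Transplant day 1 lay within the sham range, and the other 5 grafts lay above every sham sample, raised flow day 1 only just. This order did not hold at equal depth. With cells thinned to 1500 UMIs, the shares were 0.218%, 0% and 0.0188% in sham, 0%, 0.272% and 0.318% in transplant, and 0.0736%, 0.177% and 0.512% in raised flow, so that 3 of 6 grafts lay above every sham sample. Day 7 samples held 70.7% of all members.

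The grafts averaged 0.468% ± 0.324 (SD, n = 6) and the sham samples 0.0743% ± 0.0793 (SD, n = 3). This difference of 0.394 percentage points did not pass a two-sided exact permutation test (p = 0.0952, 0.233 after Benjamini-Hochberg adjustment over 7 share tests). The smallest p that 3 against 6 samples can give is 0.0238. Raised flow alone averaged 0.538% ± 0.391 (SD, n = 3) and did not overlap with sham before thinning, where the exact permutation p was 0.1, the smallest that 3 against 3 allow. After thinning, raised flow days 1 and 3 lay below sham 1. Transplant alone averaged 0.398% ± 0.307 (exact permutation p = 0.3, n = 3). Without transplant day 1, the only graft within the sham range, the difference in CD4 share of cells was 0.478 points. The exact permutation p was then 0.0357, unadjusted, the smallest that 5 grafts against 3 allow. Since these 5 grafts lie above every sham sample, leaving out that graft fixed this p, and no conclusion is drawn from it. Thinned to 1500 UMIs a cell, the difference was 0.147 points.

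Within T cells the CD4 share showed no such order. It was 5.13%, 0.806% and 2.69% in sham, 2.43%, 8.86% and 2.95% in transplant at days 1, 3 and 7, and 5.09%, 3.44% and 4.25% in raised flow. The highest share was that of transplant day 3, and the ranges of the 3 groups overlapped. The means were 4.50% ± 2.34 (SD, n = 6) in grafts and 2.88% ± 2.17 (SD, n = 3) in sham (two-sided exact permutation p = 0.381). Thinned to 1500 UMIs, the sign turned, with the grafts 0.704 points below sham. T cells as a whole were 11.4% ± 8.75 of cells in grafts and 2.09% ± 0.987 in sham (exact permutation p = 0.0714, n = 6 and 3).

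**Figure D1:**
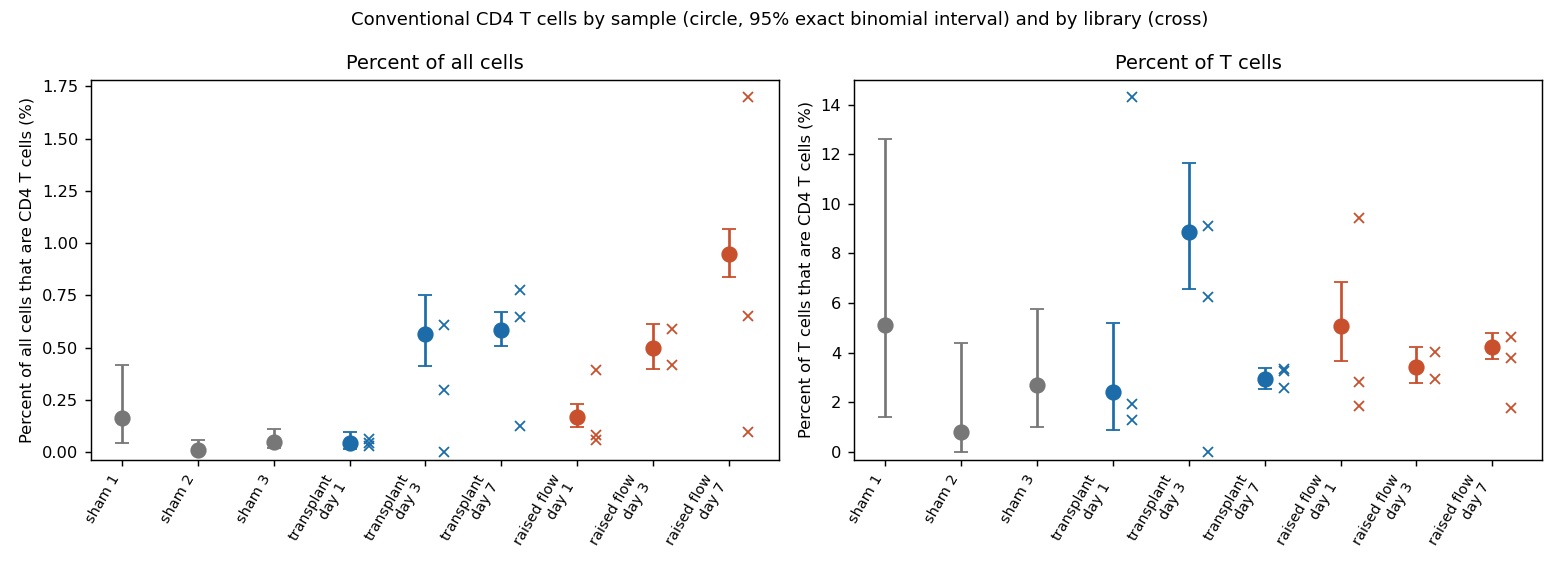
Share of cells (left) and of T cells (right), in percent, that met the rule for conventional CD4 T cells, with Cd4 RNA caught. Circles are samples, with exact 95% binomial intervals that cover counting error only. Crosses are libraries, where a sample has several. Raised flow day 7 is highest among cells at 0.948%, and transplant day 3 is highest among T cells at 8.86%.

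Libraries of a sample were unequal. At raised flow day 7, the 3 libraries gave 209, 8 and 47 members of 12313, 8326 and 7204 cells. The exact 95% intervals of the first, 1.48% to 1.94%, and of the second, 0.0415% to 0.189%, did not overlap. At transplant day 7 they gave 103, 9 and 88. Nearly all transplant day 3 members (45 of 46) came from 1 library, and the other libraries of that sample kept 437 and 337 cells after 2479 of 2923 and 3966 of 4312 barcodes had been lost to the limit on hemoglobin. Raised flow day 3 rests on 2 libraries that gave 48 and 40 members. A further library of that sample was not analysed here.

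Only 5 samples held 20 or more members: transplant at days 3 and 7, and raised flow at days 1, 3 and 7. In these, the counts of all members of a sample were summed, scaled by TMM (a library scaling) to CPM and tested with edgeR's quasi-likelihood test, with Benjamini-Hochberg adjustment over all genes. Genes with an adjusted p under 0.05 are said to have passed. TMM was fitted within each comparison, so a level can differ slightly from one paragraph to the next. Fold changes are on the log2 scale with their standard error.

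The comparison of CD4 with CD8 T cells of the same samples asked what the members share that the rule did not use. CD8 T cells, 7785 in all, were T cells with Cd8a or Cd8b and without Cd4 or the other barred genes. Of 7696 genes, 486 (6.31%) passed. In CD4 T cells, 173 genes (2.25%) were higher and 313 (4.07%) lower, with a median log2 difference over all genes of -0.02. The costimulatory gene Cd40lg was among the higher genes, and all 7 cytotoxic genes tested were among the lower ones. Without raised flow day 7, 208 genes passed, and without raised flow day 3, 319.

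Of 16 listed activation and costimulation genes, all of them tested, 6 were higher and 2 lower, with a median log2 difference of 0.33. Cd40lg (ENSRNOG00000000871), the ligand by which helper cells activate B cells, stood at 175, 166, 133, 254 and 158 CPM in CD4 T cells of transplant days 3 and 7 and raised flow days 1, 3 and 7. In CD8 T cells of the same samples it stood at 20.6, 6.78, 23.8, 12.6 and 5.24 CPM. The 2 kinds did not overlap in any sample, and the log2 difference was 4.14 ± 0.29, or 17.6-fold (edgeR adjusted p = 7.84e-06). Cells with a Cd40lg UMI made up 34.1% of CD4 T cells and 2.34% of CD8 T cells, against 0.0782% of Cd79b cells.

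Other surface and signalling genes of T cell activation followed. Tnfrsf4, the costimulatory receptor OX40, was 8.99-fold higher (log2 3.17 ± 0.36, edgeR adjusted p = 0.000379), at 110 to 390 CPM against 7.14 to 49.9. Tnfsf8, the CD30 ligand, was 11.6-fold higher, at 15.7 to 154 CPM against 4.37 to 8.83. Icos, a costimulatory receptor, was higher by a log2 of 0.61 ± 0.10, and Tnfrsf18 and Batf by 0.63 and 0.46. The levels of Icos overlapped, with 361 to 683 CPM in CD4 and 237 to 414 CPM in CD8 T cells, while each sample's CD4 value was above its own CD8 value. Il2rb, a receptor chain for interleukin 2 and 15, and Nr4a2 were the 2 members of this list that were lower in CD4 T cells.

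Of the follicular helper list, 3 of 7 tested genes were higher and none lower. These were Il21, an interleukin that helps B cells (10.8 to 21.4 CPM against 1.19 to 7.58, log2 2.15 ± 0.38, edgeR adjusted p = 0.00558), Btla and Sh2d1a. Of the type 2 helper list, 3 genes could be tested and 2 were higher. Areg, a growth factor of the EGF family, stood at 39.0, 260, 28.8, 66.1 and 180 CPM against 19.3, 57.8, 8.33, 29.8 and 48.4 in CD8 T cells (log2 1.71 ± 0.18). Gata3, the transcription factor of the type 2 program, was higher by 0.87 ± 0.19. Of the type 17 list, Maf and Rora were higher among 6 tested, with a list median of -0.25. Of the type 1 list, Il18r1 was higher, and Ccl5, Hopx and Tbx21 were lower, among 9 tested, with a list median of -0.38.

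The cytotoxic list fell wholly on the CD8 side, with 7 of 7 tested genes lower in CD4 T cells and a median log2 difference of -3.26. Gzma, a granzyme, stood at 1.86, 25.8, 0, 4.61 and 7.15 CPM in CD4 T cells, and at 1068, 2711, 433, 2012 and 2146 CPM in CD8 T cells, with no overlap (log2 -7.71 ± 0.23, edgeR adjusted p = 1.23e-08). Prf1, the pore-forming protein perforin, stood at 10.5 to 103 CPM against 118 to 718. Nkg7, a cytotoxic granule gene, stood at 5.23 to 280 CPM against 723 to 2464. Gzmm, Gzmk, Ctsw and Klrk1 were the others. Empty barcodes at raised flow day 7 held 285 CPM of Gzmk and 533 of Nkg7. Free RNA was estimated to give 10.3 of the 108 CPM of Gzmk in CD4 T cells of that sample before TMM scaling. For Nkg7 it was estimated at 19.3 of 257 CPM. Other sources of these values were not tested.

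**Figure D2:**
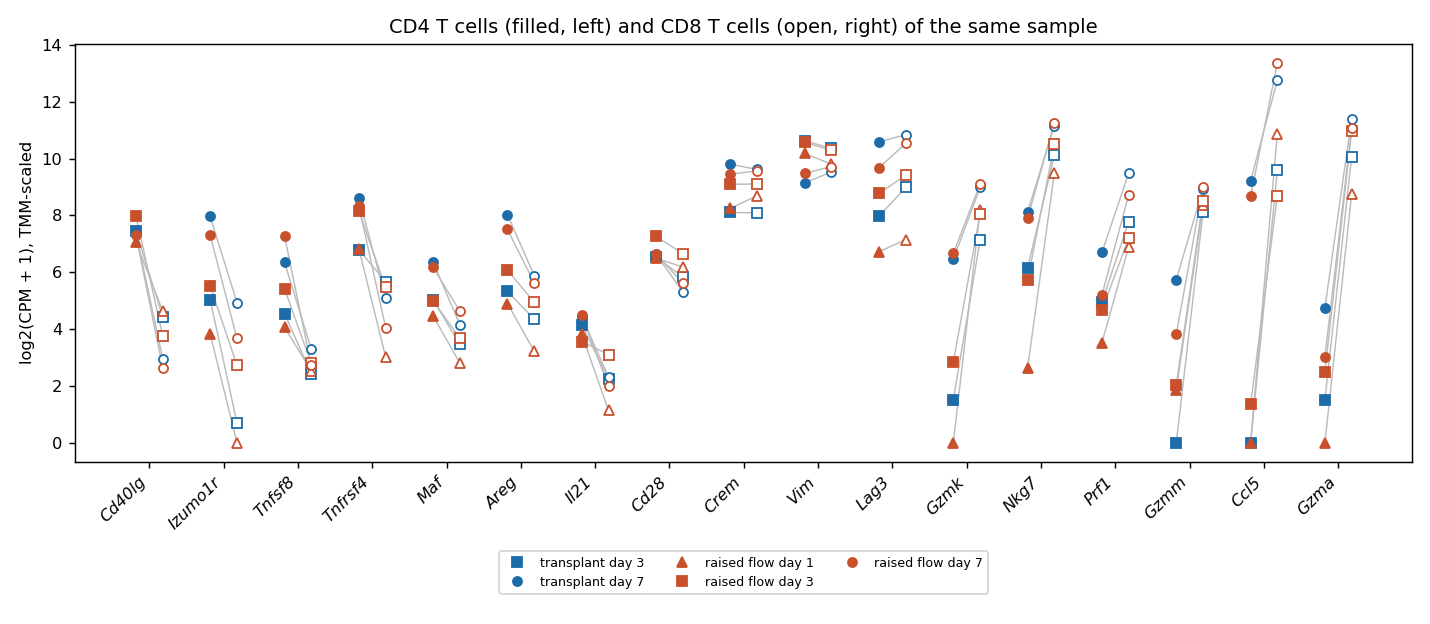
TMM-scaled levels, as log2(CPM + 1), of 17 genes in CD4 T cells (filled, left) and CD8 T cells (open, right), with lines joining the 2 kinds of the same sample in the 5 samples with 20 or more members. Cd40lg, Izumo1r and Tnfrsf4 fall from left to right in each sample, the granule genes rise, and Crem and Vim stay near level.

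Outside the lists, the genes with the largest difference that exceeded their level in empty barcodes were Higd1c, Izumo1r, Try10, Cd52, Tesc, Cldn10, Olfm1, Sh3gl3, Vdr and Cd80 on the CD4 side. Izumo1r (ENSRNOG00000019894), also called folate receptor 4 and known from regulatory and anergic CD4 T cells, stood at 31.6, 248, 13.1, 44.6 and 156 CPM in CD4 T cells against 0.624, 29.5, 0, 5.62 and 11.7 CPM in CD8 T cells (log2 3.41 ± 0.22, 10.6-fold, edgeR adjusted p = 4.69e-06). Foxp3 was barred from the members, so these Izumo1r values come from cells in which no Foxp3 was found. Tesc, a calcium-binding protein, stood at 24.1 to 49.4 CPM against 3.23 to 9.36. On the CD8 side the rule named Gzmbl2, Klra22, Cd96, Ccl4, Gzmf, Ly49s6, Slamf7, Timd2, Sidt1 and Klrc2. The granzyme-like, Ly49, Klr and trypsin genes among these (Gzmbl2, Gzmf, Klra22, Ly49s6, Klrc2 and Try10) belong to families of near-identical copies, so their counts are uncertain.

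Among 12 naive and recirculating genes, Il6r and Il7r, receptors for interleukins 6 and 7, were higher by a log2 of 1.84 ± 0.30 and 0.98 ± 0.22, and Satb1 and Lef1 lower by 0.82 and 0.66 in size, so the list went both ways. Cd28 was higher (log2 0.85 ± 0.15) and Cd27 lower (-0.84 ± 0.13) among 13 T cell receptor and coreceptor genes. Of 10 checkpoint genes, Cd200 was higher, and Havcr2, Lag3 and Entpd1 lower. Ifi27 was the only one of 19 interferon-stimulated genes to pass, Anxa1 the only one of 12 migration and cytoskeleton genes, and Aldoa (lower) the only one of 13 hypoxia and glycolysis genes. Of 14 cell cycle genes none passed, with a list median of 0.18 and Mki67 found in 20.3% of CD4 and 15.7% of CD8 T cells. None of 8 tissue residency genes passed.

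The immediate early genes Ier2, Egr1 and Zfp36 (3 of 15) and the TGF-beta feedback genes Smad7 and Pmepa1 (2 of 8) were lower in CD4 T cells. Birc3 and Nfkb1 were higher among 10 NF-kB feedback genes. Of 12 cAMP and CREB genes, Sik1 and Crtc2 were lower. Several of these calls were lost in some of the 11 alternatives, with Crtc2 passing in 5, Entpd1, Il18r1, Nfkb1 and Zfp36 in 6, Birc3, Cd200, Tbx21 and Pmepa1 in 7, and Lef1, Egr1 and Aldoa in 8. Crem (ENSRNOG00000014900), the cAMP-responsive factor that the study follows in biliary epithelium, did not pass. It stood at 275, 892, 304, 546 and 698 CPM in CD4 against 271, 784, 413, 550 and 761 CPM in CD8 T cells (log2 -0.06 ± 0.09, edgeR adjusted p = 0.801). Vim (ENSRNOG00000018087), the intermediate filament vimentin, did not pass either (log2 0.06 ± 0.11, adjusted p = 0.864).

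**Figure D3:**
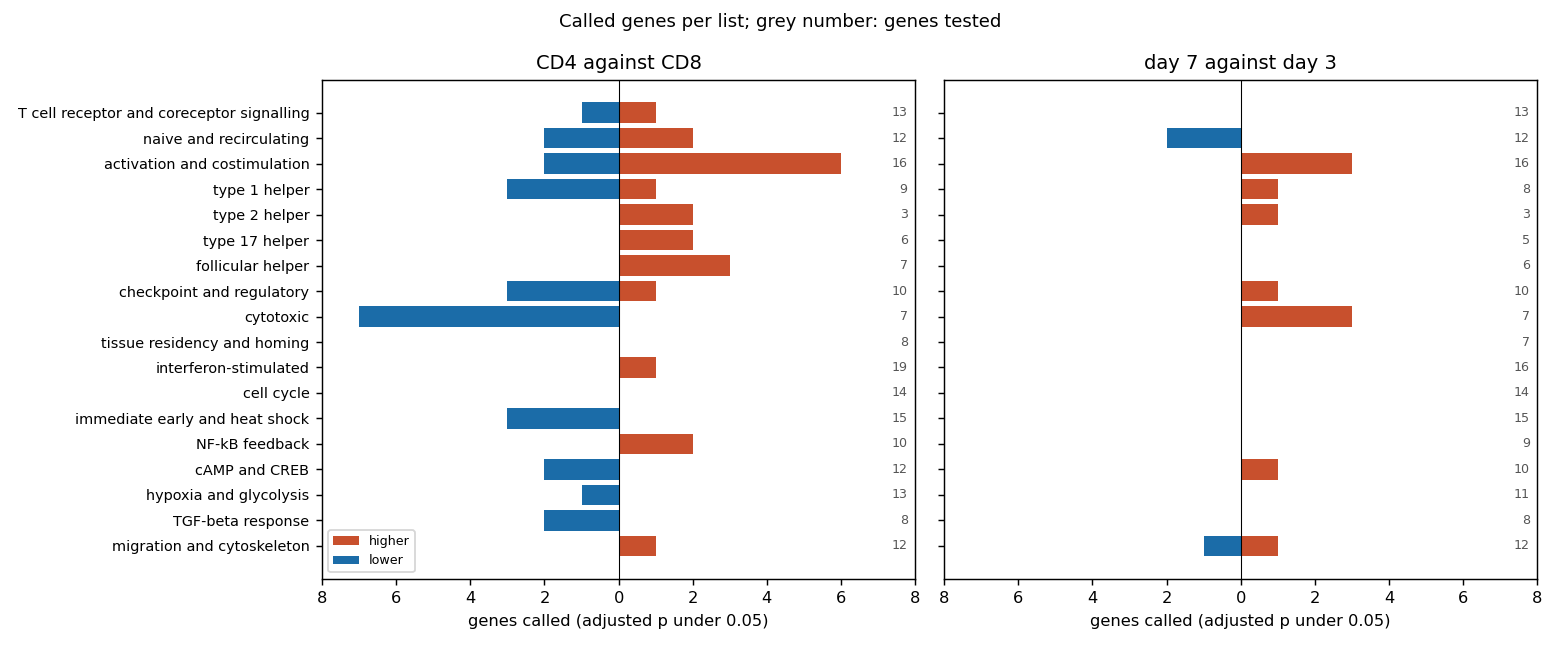
Number of genes per list that passed (bars to the right for higher, to the left for lower) in CD4 against CD8 T cells and in CD4 T cells of day 7 against day 3, with the number tested in grey. The cytotoxic list is lower in all 7 tested genes in the left panel and higher in 3 of 7 in the right panel.

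Between day 3 and day 7, summed CD4 T cells fell in the naive gene Lef1 and in vimentin and rose in Ccl4, Ccl5 and Gzmk, among others. The comparison set 2 grafts of day 7 against 2 of day 3, 1 from each arm. The fit with day and arm over the 5 samples leaves 1 residual degree of freedom. Its p-values therefore lean mostly on a spread shared across genes. Of 6440 genes, 84 (1.3%) passed, 51 (0.792%) higher and 33 (0.512%) lower at day 7, with a median log2 change over all genes of 0.00. DESeq2 called 16, a fit on single libraries 12 and a fit without the arm term 9. Fits without likely doublets and without cells that held fibroblast UMIs called 9 and 25. Ccl4, Ccl5 and Gzmk passed in all 9 alternatives, while Lef1 passed in 4. Day 3 members were deeper than day 7 members in both arms. Their median was 7789 and 6522 UMIs in transplant and raised flow day 3 against 3825 and 3893 at day 7, with 2010 and 1814 against 1303 and 1344 genes a cell. The part of this depth in the results was not tested. With 1 value per day and arm, fewer cells of a kind and less RNA per cell cannot be told apart in these sums.

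Lef1, a transcription factor of naive T cells, fell. It stood at 97.1 CPM at transplant day 3 and 89.5 at raised flow day 3, and at 28.8 and 34.8 CPM at day 7. Both day 7 samples were below both day 3 samples, as for 1316 of 6440 genes. The log2 change was -1.54 ± 0.33 (edgeR adjusted p = 0.0199). The share of members with a Lef1 UMI was 42.5% at day 3 and 14.7% at day 7. Thinned to 1500 UMIs it was 15.7% and 5.32%. In CD8 T cells the shares were 48.7% and 19.1%, and in Cd79b cells 0.629% and 0.883%. The median log2 change of the 12 tested genes of the naive list was -0.37.

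Vimentin fell as well. Vim stood at 1648 and 1581 CPM in CD4 T cells of transplant and raised flow day 3, and at 586 and 743 CPM at day 7 (log2 -1.29 ± 0.24, edgeR adjusted p = 0.00599). It passed in 7 of 9 alternatives and not without likely doublets (log2 -1.25, edgeR adjusted p = 0.150). The fibroblast markers also fell in the members, from 837 and 1707 CPM at transplant and raised flow day 3 to 42.7 and 1042 at day 7. Without cells that held fibroblast UMIs, the log2 change of Vim was -1.39 (edgeR adjusted p = 0.0224). Members with a Vim UMI made up 94.0% at day 3 and 61.9% at day 7, or 76.1% and 44.1% when thinned. S100a4, a calcium-binding protein of the same migration list, rose instead, from 575 and 745 CPM to 2121 and 1665 (log2 1.52 ± 0.26), and passed in 6 of 9 alternatives. The other 10 genes of that list did not pass. Crem stood at 287 and 567 CPM at day 3 and at 924 and 727 at day 7, which did not pass (log2 1.01 ± 0.30, adjusted p = 0.125).

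Izumo1r rose. It stood at 33.0 and 46.4 CPM at day 3 and at 257 and 163 at day 7 (log2 2.35 ± 0.35, 5.09-fold, edgeR adjusted p = 0.000522). Empty barcodes of the same samples held 3.46 to 15.2 CPM of it. A UMI of Izumo1r was found in 15.7% of members at day 3 and 34.9% at day 7, and in 0.105% and 0.0833% of Cd79b cells. Of 16 activation genes 3 passed. Nr4a2, a nuclear receptor induced by antigen receptor signals, and Tnfsf8 rose by a log2 of 1.83 ± 0.31 and 1.86 ± 0.35. Il2 also passed, yet it rested on 80 UMIs in 8 cells of raised flow day 7 against 0 at transplant day 7. Areg rose from 40.8 and 68.7 to 269 and 188 CPM (log2 2.04 ± 0.34), and Lag3, a checkpoint receptor for MHC class II, from 262 and 454 to 1596 and 852 (log2 1.74 ± 0.32). Of 9 alternatives, Nr4a2 passed in 7, Izumo1r in 6, Areg in 5, and Tnfsf8 and Lag3 in 4, while Il2 passed in 3 of 8. Without likely doublets none of these 6 passed (edgeR adjusted p = 0.0627 for Izumo1r and 0.206 for Lag3), at log2 changes of 2.38 for Izumo1r, 1.75 for Nr4a2, 1.86 for Tnfsf8, 4.68 for Il2, 2.17 for Areg and 1.67 for Lag3. In CD8 T cells of transplant and raised flow, scaled as for CD4 against CD8, Izumo1r also rose. It went from 0.624 and 5.62 CPM at day 3 to 29.5 and 11.7 at day 7. Lag3 went there from 505 and 682 to 1832 and 1489, and Areg from 19.3 and 29.8 to 57.8 and 48.4. Nr4a2 went from 117 and 185 to 273 and 271. Tnfsf8 and Il2 rose there in transplant and fell in raised flow.

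**Figure D4:**
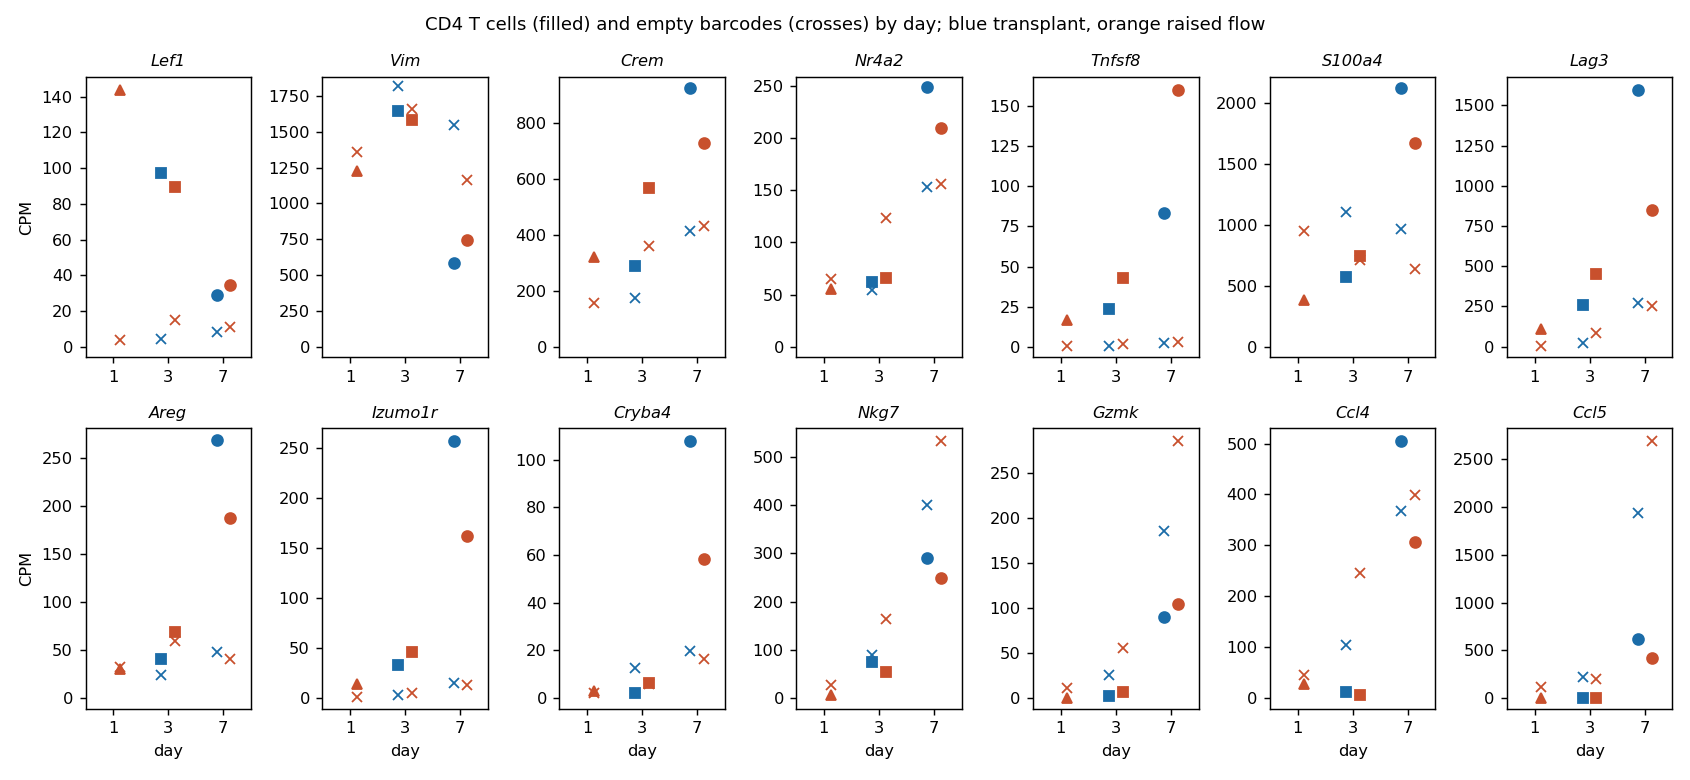
Levels in CPM by day of 14 genes in summed CD4 T cells (filled, TMM-scaled; blue transplant, orange raised flow) and in empty barcodes of the same samples (crosses, CPM without TMM). Lef1 and Vim are lower in both day 7 samples than in both day 3 samples, and the other genes are higher. Of all 6440 genes tested, 1316 were lower and 1443 higher in this way. Ccl5, Gzmk and Nkg7 stay below their level in empty barcodes at day 7.

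The chemokine genes Ccl4 and Ccl5 and 3 of 7 cytotoxic genes rose. Ccl4, an inflammatory chemokine, stood at 11.6 and 6.39 CPM at day 3 and at 505 and 307 at day 7 (log2 5.48 ± 0.39, edgeR adjusted p = 7.54e-09). Gzmk, a granzyme of effector memory T cells, stood at 1.94 and 6.39 CPM and then at 89.7 and 105 (log2 4.46 ± 0.51). Nkg7 stood at 73.8 and 54.4 and then at 290 and 249 (log2 2.08 ± 0.31). Gzmm was the third cytotoxic gene of 7 to pass, and the list median was 2.01. Gzmm passed in 4 of 9 alternatives and Nkg7 in 7, and without likely doublets neither passed (log2 3.63 and 1.89, edgeR adjusted p = 0.288 and 0.0603). At raised flow day 7 the estimated free RNA gives 7.28 of the 14.1 CPM of Gzmm. Ccl5, the chemokine RANTES, had 1 UMI in the members of both day 3 samples and 1261 in those of day 7, a ratio of 590 with a 95% counting interval of 106 to 23317. The summed NK cell markers moved with these genes, from 98.6 and 81.7 CPM in members of transplant and raised flow day 3 to 253 and 233 at day 7, and macrophage and monocyte markers from 151 and 137 to 343 and 302. In empty barcodes the NK markers went from 4894 and 2447 to 3640 and 2891 CPM, and the macrophage and monocyte markers from 12959 and 8926 to 9614 and 10692. CD8 T cells, which can be among the members where Cd8 was missed, also grew as a share of T cells. They made up 31.4% and 40.8% at transplant and raised flow day 3, and 47.9% and 48.4% at day 7. The part of all these cells and of their RNA was not tested.

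These RNAs were abundant outside the cells too. Empty barcodes at transplant and raised flow day 7 held 1939 and 2689 CPM of Ccl5, 367 and 399 of Ccl4 and 186 and 285 of Gzmk. Free RNA was estimated at 4.04% and 3.62% of the members' UMIs in these samples, which gives 78.4 and 97.2 CPM of Ccl5, 14.9 and 14.4 of Ccl4 and 7.51 and 10.3 of Gzmk. The unscaled levels in the members were 588 and 437, 481 and 316, and 85.5 and 108 CPM. With this free RNA subtracted, Ccl4, Ccl5, Gzmk and Nkg7 still passed. For Ccl5, 5 members held 94.8% and 81.6% of the UMIs at transplant and raised flow day 7. The summed counts do not show whether Ccl5 in the other members exceeded free RNA.

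The share of cells with Ccl5 was close to that in B cells. At day 7, 22.2% of members held a Ccl5 UMI, against 14.9% of Cd79b cells (median depth 2202 UMIs over all samples) and 16.7% of Epcam cells. Thinned to 1500 UMIs, the shares were 10.4%, 9.0% and 7.08%. Most Ccl5 UMIs lay in few cells, since 5 members held 94.8% of those at transplant day 7, where 1 cell had 402 of 578, and 81.6% of those at raised flow day 7. At raised flow day 7, library 1 held 79.2% of the members, 99.0% of the Ccl5 UMIs, 93.5% of those of Gzmk and 94.0% of those of Nkg7. The top 5 cells held 56.0% and 56.8% of the Gzmk UMIs at transplant and raised flow day 7. For Ccl4, the top 5 cells held 49.3% and 52.8%. Nkg7 was spread wider, with 33.1% and 36.7% in the top 5 cells. Its thinned share at day 7 was 13.7% of members against 3.74% of Cd79b cells. At least 1 UMI of Ccl5, Ccl4, Gzmk or Nkg7 was found in 212 of 464 members at day 7 (45.7%) and in 18 of 134 at day 3 (13.4%), and at least 2 of these 4 genes in 22.8% and 3.73%. These joint shares were not taken in Cd79b or Epcam cells, so their background is not known. The change from day 3 to day 7 differed between CD4 and CD8 T cells for 34 of 7852 genes (0.433%), among them Ccl4, Gzmk, Nkg7 and Ccl5. Of the 162 day 7 members with Izumo1r, 98 also held 1 of the 4.

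Outside the lists, Try10, Calca, Ccl4, Alpl, Cryba4, Ccl1, Nsg2, Podnl1, Plagl1 and Izumo1r rose most. Cryba4, a crystallin, stood at 1.94 and 6.39 CPM at day 3 and 108 and 58.4 at day 7 (log2 4.12 ± 0.56). Nsg2, a neuronal vesicle protein gene, stood at 5.82 and 11.2 and then at 57.6 and 68.3 (log2 2.86 ± 0.49). Try10 was at 0 UMIs in both day 3 samples and at 74 at day 7, at least 11.5-fold higher when the day 3 group is set at a floor of 3 UMIs. All 49 Try10 UMIs of transplant day 7 came from 1 library. On the lower side, Ptn, Psat1, Shmt2, Zbtb32 and Dus2 passed. Psat1 and Shmt2, enzymes of serine and one-carbon metabolism, fell by 1.55 ± 0.35 and 1.43 ± 0.34 on the log2 scale. Of 9 alternatives, Psat1, Shmt2, Zbtb32, Dus2, Ptn, Calca and Plagl1 passed in 4, Try10, Nsg2 and Podnl1 in 5, Cryba4 in 6 and Alpl in 8, while Ccl1 passed in 3 of 8. Ptn, a secreted growth factor, stood at 452 and 184 CPM at day 3 and 9.61 and 95 at day 7, and its sign turned without the likely doublets (3.72) and without cells that held fibroblast UMIs (3.64).

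The other lists showed few or no changes between day 3 and day 7. Sik1 rose in the cAMP and CREB list (log2 1.46 ± 0.32) and passed in 4 of 9 alternatives. No gene passed among 13 T cell receptor genes, 5 type 17, 6 follicular helper, 7 residency, 16 interferon-stimulated, 14 cell cycle, 15 immediate early, 9 NF-kB, 11 hypoxia and 8 TGF-beta genes. Their list medians ranged from -0.26 for hypoxia and glycolysis to 0.78 for the type 17 list.

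Day 1 was represented by a single sample, raised flow, since transplant day 1 held 6 members and was not in the fit. The spread behind these tests therefore comes from the other samples, and the lone day 1 sample, with 29 of its 41 members from 1 library, is assumed to vary like them. The comparison of day 7 with day 1 shares its day 7 samples with the previous one. Of 6440 genes, 165 (2.56%) passed, 55 (0.854%) higher and 110 (1.71%) lower at day 7. Higher genes were Ccl5, Nkg7, Gzmk, Lag3, S100a4, Areg, Izumo1r and Ccl4 again, with Tnfrsf4, Tnfrsf9 and Prdm1, a repressor that marks effector cells. Tnfrsf9, the costimulatory receptor 4-1BB, differed by a log2 of 2.82 ± 0.64, Prdm1 by 3.62 ± 0.79 and Lef1 by -2.13 ± 0.42. Tnfrsf9 and Prdm1 each passed in 3 of 8 alternatives. The 6 members of transplant day 1 held 36 Ccl5 UMIs, all in 1 cell, or 1326 CPM, which was above the level of both day 7 samples. They held 5 UMIs of Nkg7, also in 1 cell, or 184 CPM, and none of Gzmk, Lag3, Izumo1r or Areg. Without the cells that held 2 or more fibroblast UMIs, 3 genes passed, all higher, among them Ccl5 (adjusted p = 0.00408) and Nkg7 (0.0299).

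Raised flow and transplant were compared across the same 5 samples with day as a block. Raised flow day 1 had no transplant sample of its day in the fit, so the log2 differences came from days 3 and 7. Of 6440 genes, 25 (0.388%) passed, 24 (0.373%) higher in raised flow and 1 (0.0155%) lower. Of the 229 listed genes only Il2 was among them, carried by the 8 cells named above. Crem and Vim did not pass (log2 0.29 ± 0.29 and 0.14 ± 0.24). Mgp, Dcn, Col1a1 and Col3a1, genes of the extracellular matrix, were among the 24 higher genes. They were chosen after their values were seen, and lie outside the naming rule because empty barcodes held more of them. Mgp, matrix Gla protein, stood at 15.5 and 7.47 CPM in transplant days 3 and 7 and at 6000, 294 and 146 CPM in raised flow days 1, 3 and 7. Dcn, the proteoglycan decorin, stood at 3.88 and 5.34 CPM against 1063, 117 and 132.

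These RNAs sat in a handful of cells. At raised flow day 1, 5 of 41 members held 99.0% of 2168 Mgp UMIs, and 1 library held 99.5% of them. At raised flow days 3 and 7, the top 5 cells held 94.0% and 97.0%. Cxcl9, a chemokine induced by interferon gamma that also passed, had 97.1% and 95.3% of its UMIs in 5 cells at raised flow days 3 and 7. Members with 2 or more UMIs of Col1a1, Col3a1 and Dcn together numbered 33 of 656, 9 of them among the 41 of raised flow day 1. Without these cells no gene passed (edgeR, 108 at an unadjusted p under 0.05), and without the likely doublets none passed either (105). DESeq2 on all cells called 9. The 1 lower gene was Wfdc21. Transplant day 7 held the most neutrophil marker RNA, whose part in this was not tested.

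**Figure D5:**
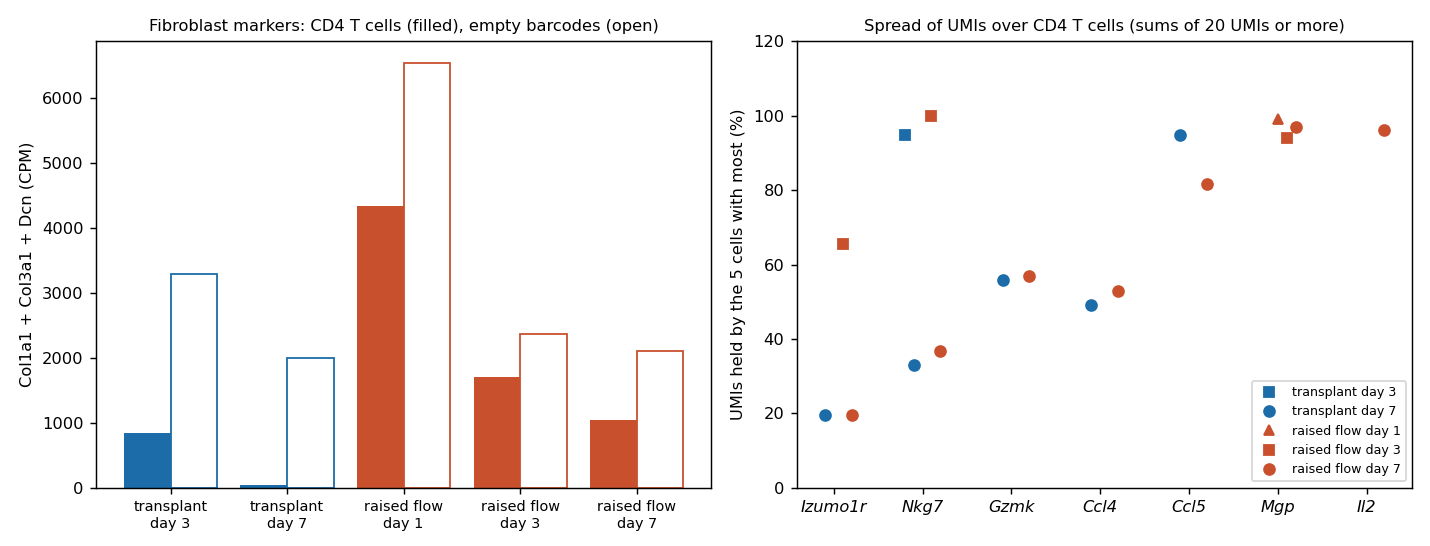
Left, summed CPM of the fibroblast markers Col1a1, Col3a1 and Dcn in CD4 T cells (filled) and in empty barcodes (open) of the 5 samples. Right, percent of a gene's UMIs held by the 5 members with most, for sums of 20 UMIs or more: Mgp and Il2 lie above 90%, Izumo1r at about 19.5% in both day 7 samples.

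Sham CD4 T cells were too few for a planned comparison. The 11 cells held 38222 UMIs in all, 14839, 2135 and 21248 per sample. In a fit of all 9 samples with no minimum of cells, 3 of 4700 genes (0.0638%) passed, while 621 had an unadjusted p under 0.05. The median log2 change of all genes was 0.71, and 0.16 with DESeq2's size factors. Gzmk passed as lower in grafts and rested on 12 UMIs in the only cell of 1 sham sample, and without that sample its sign turned (log2 4.23). Prss1, a trypsin gene, rested on 7 UMIs in sham. Prdx5, a peroxiredoxin, had 0 UMIs in sham and 1334 in grafts, at least 4.12-fold higher with sham at the floor of 3 UMIs over the group. The change from sham to grafts differed from that in CD8 T cells for 1 of 5989 genes (0.0167%), Ifi27l2b.

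Single helper cytokine genes were found in few members, and cells with Il17a were barred by the rule. Il4 was found in 1 of 656 cells and Cxcr5 and Il22 in 2 each. Il13 and Il17f were found in none, which allows a share of cells with a UMI of up to 0.457%. Ifng, the type 1 cytokine, was found in 6.55% of members (95% exact binomial interval 4.78 to 8.73), and Il10 in 5.49%, against 0.209% and 0.378% of Cd79b cells. Tbx21, the type 1 transcription factor, was found in 20.9% and Gata3 in 21.5%, against 6.86% and 0.717% of Cd79b cells. Cxcr3, a receptor for chemokines induced by interferon gamma, was found in 27.3%, against 1.41% of Cd79b cells. Intervals cover counting error only.

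Regulatory T cells, picked by the same rule but with a Foxp3 UMI, numbered 50, and only raised flow day 7 held the planned minimum of 20 (27, of which 26 came from 1 library). The others were spread over 6 samples with 1 to 9 each, and no test was run. In that sample, Il2ra, the high-affinity interleukin 2 receptor chain, stood at 102 CPM in conventional CD4 T cells (95% Poisson interval 86.6 to 119) and 267 in regulatory T cells (202 to 345). Cd40lg stood at 170 (150 to 191) and 23.4 (7.59 to 54.6), and Areg at 194 (173 to 217) and 9.36 (1.13 to 33.8). Ctla4, a checkpoint receptor, stood at 206 (184 to 229) and 154 (106 to 217). These intervals cover counting error within 1 sample and do not compare the 2 kinds of cell. These genes were chosen after the values of these data were known.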

How the data were processed

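Cells of 20 10x Genomics libraries were analysed from the UMI counts that the authors deposited, which are unnormalised whole-number counts per gene and barcode with empty barcodes included. The matrix headers name Cell Ranger 4, and the submitters' processing notes list Cell Ranger 5.0.1 and Seurat 3.2.0. The genome build is not given in the sources used here. Counts of the 23999 features were added up by symbol (23836). A barcode counted as a cell when its gene number lay above 400 and below 6000, its mitochondrial share below 25% and its hemoglobin share below 3%. Total counts were 21270647 to 290590249 UMIs per sample, and intervals cover counting error only.

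The members and the 18 gene lists (229 genes, 222 among the features) were chosen with earlier results of these data known. Samples were the unit. Shares were compared by two-sided exact permutation tests. Counts summed over the cells of a sample were tested with edgeR 4.0.16 (TMM, filterByExpr, quasi-likelihood test, adjusted p under 0.05) with terms for sham, day and raised flow, or with the sample as a block for CD4 against CD8 T cells. The planned minimum of 20 cells left out all sham samples and transplant day 1, so the comparison with sham was refitted with no minimum and day 7 was also set against day 3. Both were added after the data were seen, as was the comparison of the day 3 to day 7 change between CD4 and CD8 T cells. The comparison with regulatory T cells was not run, since 1 sample reached that minimum. Genes used by the rule were left out of counts of results.

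Named genes were the up to 4 of each list with the smallest p, Crem and Vim, and outside the lists the 10 largest changes in each direction that passed, had a gene symbol and exceeded their CPM in empty barcodes (100 UMIs or fewer). Day marks the same numbers in both graft groups and served as the block. Since each day gives 1 sample per group, pairing could not be checked separately. Alternatives were other size factors, DESeq2 1.42.0, no filter, removal of the cells with the highest doublet scores of each library, subtraction of free RNA (its share estimated from genes of other cell types), single libraries as samples, no day term, leaving out samples and, added later, leaving out cells with 2 or more fibroblast UMIs. Scripts were tested on simulated data. R 4.3.3 and Python 3.11.15 were used. Some genes of the lists are not reported here.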

Additional observations from a re-analysis of the deposited data

Results flagged for a closer look

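The change from day 3 to day 7 was compared between CD4 and CD8 T cells over the 4 grafts of these days, with the sample as a block, and the genes below passed the test of that difference (edgeR, adjusted p under 0.05). All values are log2 differences, the change in CD4 less that in CD8 T cells, and the causes were not tested.

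Ccl4, Ccl5 and 2 of 7 tested cytotoxic genes, Gzmk and Nkg7, changed more on the log2 scale in CD4 T cells. Ccl4 went from 11 and 6.10 CPM in CD4 T cells of transplant and raised flow day 3 to 482 and 291 at day 7, while CD8 T cells stood at 1510 and 1231 and then at 1607 and 1953, a difference of 5.10 ± 0.38 (adjusted p = 2.04e-05). Gzmk differed by 3.13 ± 0.37 (adjusted p = 0.00145), Nkg7 by 1.20 ± 0.20 and Ccl5 by 5.26 ± 0.92. Ccl4 and Gzmk passed in all 10 alternatives, Nkg7 in 9 and Ccl5 in 7. The value for Ccl5 rests on 1 UMI in CD4 T cells of day 3, ranged from 3.96 to 11.05 over the alternatives and did not pass without likely doublets (4.02, edgeR adjusted p = 0.267). All 4 RNAs stayed more abundant in CD8 T cells and were present in empty barcodes. Scaled as for CD4 against CD8, Ccl5 in CD8 T cells went from 777 and 412 CPM at day 3 to 6925 and 10565 at day 7. Gzmk went there from 139 and 264 to 506 and 550, and Nkg7 from 1117 and 1457 to 2291 and 2464. Gzmk had 1 and 4 UMIs in CD4 T cells of transplant and raised flow day 3.

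Odc1, the rate-limiting enzyme of polyamine synthesis, stood at 265 and 412 CPM and then at 967 and 767 in CD4 T cells, and at 191 and 257 and then 333 and 284 in CD8 T cells, a difference of 0.90 ± 0.15. Itgb1, the integrin beta 1 chain, stood at 173 and 171 and then 204 and 234 in CD4 T cells, and at 91.0 and 88.6 and then 250 and 288 in CD8 T cells, a difference of -1.23 ± 0.18. Both passed in all 10 alternatives. Vim differed by -0.58 ± 0.11, with a fall in both kinds that was larger in CD4 T cells. Tox, a transcription factor of chronic stimulation, differed by -1.63 ± 0.29, Ly6e by -1.29 ± 0.24, the heat shock gene Hspa1b by -1.68 ± 0.28 and the histone gene Hist1h2an by 1.14 ± 0.20. Tox, Ly6e and Hist1h2an passed in 8 of 10 alternatives, and Vim and Hspa1b in 7. Hspa1b was -0.895 without likely doublets (adjusted p = 0.484) and -0.902 without fibroblast-UMI cells (adjusted p = 0.594). Hist1h2an was 0.755 (adjusted p = 0.246) without the latter. The histone and heat shock genes have near-identical copies, so their counts are uncertain.

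The change from sham to grafts differed between CD4 and CD8 T cells for Ifi27l2b, an interferon-inducible gene, by 2.26 ± 0.36 (edgeR adjusted p = 0.00804). In CD4 T cells it stood at 1318, 133 and 1584 CPM in sham and at 1445 to 3606 CPM in grafts. In CD8 T cells it stood at 2805 to 3505 in sham and at 1019 to 2304 in grafts. The 133 CPM is that of 1 cell with 2135 UMIs, in which 1 UMI exceeds 133 CPM before TMM scaling. That value therefore leans on the scaling. The median log2 difference over all genes was 0.94. The sham side rests on 11 CD4 T cells, and the gene passed in 10 of 15 alternatives. Of the 6 members of sham 3, 4 held 2 or more fibroblast UMIs, and without such cells the difference was 2.48.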

How the results depend on the processing

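The difference in CD4 share of cells was 0.298 to 0.478 points with single samples left out. At 0.478, without transplant day 1, the exact permutation p was 0.0357, unadjusted. Leaving out the only graft within the sham range fixed this p. The CD4 share of T cells differed by 0.593 to 2.75 points with single samples left out and by -0.704 after thinning.

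Counts of genes that passed moved by over 1.5 times as follows, and the causes were not tested. Grafts against sham (3 genes) gave 9 with DESeq2's size factors, 5 without a filter, 23 without cells that held fibroblast UMIs, 1 with each library as a sample, 0 with transplant alone (19 at an unadjusted p under 0.05), 23 with raised flow alone and 1 to 27 with single samples left out. Day 7 against day 1 (165) gave 33 with DESeq2, 255 without a filter, 3 without fibroblast-UMI cells and 64 with single libraries. Raised flow against transplant (25) gave 9, 61, 0 and 0 in the same order, 0 without likely doublets, 46 with free RNA subtracted and 15 without raised flow day 1. Day 7 against day 3 (84) gave 16, 145, 25 and 12 in that order and 9 without doublets. CD4 against CD8 (486) gave 880 without a filter and 208 to 492 with single samples left out. The graft interaction (1) gave 0 with DESeq2's size factors, 39 without a filter, 2 without doublets, 104 without fibroblast-UMI cells and 0 to 41 with single samples left out. The day interaction (34) gave 19 with DESeq2, 170 without a filter, 12 with free RNA subtracted and 66 to 151 with single samples left out. Leaving out other single samples from the 3 comparisons between grafts was not run. Without raised flow day 1, day 7 against day 1 had no day 1 sample. The other fits would leave no residual degree of freedom.

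Without the day term, grafts against sham and raised flow against transplant each gave 0 genes. Without the arm term, day 7 against day 1 gave 57 and day 7 against day 3 gave 9. In the fit without the day term, Crem in raised flow against transplant was -0.16 on the log2 scale.

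Signs turned for the following log2 values, of which only Gzmk and Ptn had passed in the fits reported. With single samples left out, grafts against sham gave -6.72 to 4.23 for Gzmk (4.23 without sham replicate 2), -1.24 to 0.63 for Crem (0.63 without sham replicate 3) and -0.0469 to 0.72 for Vim (below 0 without transplant day 3 and without raised flow day 1). CD4 against CD8 gave -0.11 to 0.015 for Crem and -0.022 to 0.18 for Vim, and the day interaction -0.12 to 0.15 for Crem. In grafts against sham, Crem was 0.26 without fibroblast-UMI cells, and Vim -0.24 with DESeq2's size factors, -0.18 with DESeq2, -0.48 with single libraries and -0.35 with transplant alone. In day 7 against day 3, Ptn was 3.72 without doublets and 3.64 without fibroblast-UMI cells. In CD4 against CD8, Crem was 0.0099 without fibroblast-UMI cells. With DESeq2's size factors and with DESeq2, Crem was -0.21 and -0.24 in the graft interaction and -0.017 and -0.017 in the day interaction.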
